A study of Mus musculus with 8 samples.

Results

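The genes described here are 10 that encode proteins of cartilage matrix or proteins secreted by cartilage cells: Acan, Cytl1, Comp, Chad, Matn1, Matn2, Matn3, Matn4, Cnmd and Cilp. They were taken by name, as all probe sets annotated to exactly 1 of these symbols. This gave 12 of the 45037 probe sets that are not controls, and 10 of 18193 named genes. Their transcripts were compared between the ductus arteriosus, a fetal shunt from the pulmonary trunk into the aorta that shuts soon after birth, and the aorta. Untreated fetal mice at gestational day 19, labelled as wild type with the strain given as CD88, were the source of both vessels. Each of the 4 ductus and 4 aorta arrays held RNA of segments pooled from up to 10 pups of a single dam, so a replicate is a litter pool, and the labels call the replicates biological.

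Cartilage matrix is a collagen network that holds aggrecan, a very large proteoglycan whose chondroitin sulfate chains bind water, on strands of hyaluronan. Link proteins fix aggrecan to hyaluronan, matrilins and cartilage oligomeric matrix protein bridge aggrecan, collagen and other matrix molecules, and ADAMTS proteases cut aggrecan. Several of these proteins are not limited to cartilage: aggrecan and its relative versican are also found in the walls of arteries and in heart valves.

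Values are on the log2 scale as the submitters normalized them, so a difference of 1 is 2-fold. They can be set side by side between arrays for a probe set but not between probe sets. Differences are ductus minus aorta with limma's standard error (SE), and levels are mean ± SD over 4 arrays. A gene was called at a Benjamini-Hochberg adjusted p under 0.05 over all genes, each gene represented by its probe set of highest mean. The first quartile of all values lay between 2.74 and 2.86 on the 8 arrays. The table used holds no detection call, so a level near or under that band is not shown to be above background, and a fold against it can be compressed.

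Of the 10 genes, 4 were called, 2 lower in the ductus (Acan and Cytl1) and 2 higher (Chad and Cilp). Over all genes tested, 3.86% were called, 2.06% higher in the aorta and 1.80% higher in the ductus. Values of the 2 vessels did not overlap for 5 of the 10 genes (the called genes and Comp), against 11.3% of all genes. The 10 genes were chosen with earlier results of these data known, so the shares over all genes are printed for scale and are not a test. The median difference of the 10 genes was -0.13, beside -0.032 over all genes. Fitted probe set by probe set, 3 of the 12 were called (Acan, Cytl1 and Cilp). This was 2 with more signal in the aorta and 1 in the ductus, where 2.46% of all probe sets were called, 1.20% higher in the aorta and 1.26% in the ductus. In RNA of whole vessel segments, fewer cells of a type and less RNA per cell cannot be told apart.

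The stretches before the starts of the 4 called genes are shown because they are the members that moved, as pairs in opposite directions. RefSeq start sites of build GRCm38.p6 were used. They lay at chr7:79052976-79053225 for Acan, chr5:37735269-37735518 for Cytl1, chr11:94564797-94565046 for Chad and chr9:65264930-65265179 for Cilp, all on the plus strand. Each run gives the 250 bases before the start, 5′ to 3′, and capitals mark matches to a GC box (GGGCGG, or CCGCCC on the other strand) or a TATA box (TATAAA or TATATAA, on the gene's strand only; the letters were chosen after these stretches had been read).
Acan: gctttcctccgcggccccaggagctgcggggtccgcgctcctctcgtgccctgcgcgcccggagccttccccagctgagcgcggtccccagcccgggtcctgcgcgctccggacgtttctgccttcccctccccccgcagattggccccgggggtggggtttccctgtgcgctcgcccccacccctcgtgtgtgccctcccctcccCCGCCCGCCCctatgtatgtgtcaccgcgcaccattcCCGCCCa
Cytl1: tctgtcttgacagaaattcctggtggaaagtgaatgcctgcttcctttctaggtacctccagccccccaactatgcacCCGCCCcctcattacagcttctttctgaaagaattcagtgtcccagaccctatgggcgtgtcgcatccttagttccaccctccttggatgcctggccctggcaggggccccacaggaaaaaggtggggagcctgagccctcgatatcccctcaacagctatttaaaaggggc
Chad: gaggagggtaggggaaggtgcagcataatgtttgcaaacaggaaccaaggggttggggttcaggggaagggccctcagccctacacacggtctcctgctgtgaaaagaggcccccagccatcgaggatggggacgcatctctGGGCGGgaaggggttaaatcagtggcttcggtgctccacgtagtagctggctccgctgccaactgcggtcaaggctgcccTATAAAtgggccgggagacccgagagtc
Cilp: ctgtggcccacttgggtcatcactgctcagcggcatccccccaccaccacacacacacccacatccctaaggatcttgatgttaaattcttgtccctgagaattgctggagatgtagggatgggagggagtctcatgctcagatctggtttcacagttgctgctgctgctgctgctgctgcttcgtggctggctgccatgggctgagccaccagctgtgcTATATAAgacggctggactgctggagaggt

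The Acan stretch was the richest in G and C among those of the members, at 74.4% against a median of 52.4% over 32851 stretches of the same length, and held 3 GC box matches, some of them overlapping. Cytl1 and Chad held 1 each, and Cilp none. A GC box match was present in 32.7% of all stretches. A TATA box match, present in 8.70% of all, lay 28 bases before the start of Chad and 30 before that of Cilp. Acan and Cytl1 held no match, though the Cytl1 stretch has the like run tatttaaaa near its end, which the chosen letters leave out. The letters were chosen after these stretches had been read, so how the matches fall on genes that rose or fell is not a test. Core sites of SOX factors were searched as ACAAAG, read as CTTTGT on the other strand, and as ACAATG, read as CATTGT there. They occur in 16.5% and 10.7% of all stretches and were found in none of the 9 entries listed for 8 of the members (Comp and Matn2 had no match in the table). This says only that these letters are not in these windows. A match is a description of the letters and not a sign of binding.

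Acan encodes aggrecan, the main water-binding proteoglycan of cartilage. Its log2 values were 11.16, 11.39, 11.15 and 11.01 on the aorta arrays and 9.18, 10.19, 8.94 and 9.63 on the ductus arrays. All aorta values were above all ductus values, and ductus replicate 2 was nearest to the aorta. The difference was -1.69 ± 0.243 (SE), or 3.23-fold higher in the aorta (adjusted p = 0.00447, n = 4 each). The values of the ductus spread over 1.25 log2 units and those of the aorta over 0.378. Acan stayed called when any 1 of the 8 arrays was left out, with log2 differences from -1.93 to -1.51.

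Cytl1 encodes a small secreted protein, cytokine-like 1, made by cartilage cells and first found in blood progenitor cells. Its log2 values were 9.54, 9.77, 9.18 and 9.75 in the aorta and 8.02, 7.62, 8.14 and 7.73 in the ductus. The groups were more than 1 log2 unit apart, and the spread inside each group was 0.594 and 0.514. Of the members Cytl1 had the smallest adjusted p, 0.000604, at a log2 difference of -1.68 ± 0.169 (SE; 3.20-fold higher in the aorta). It was called in every alternative run.

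**Figure D1:**
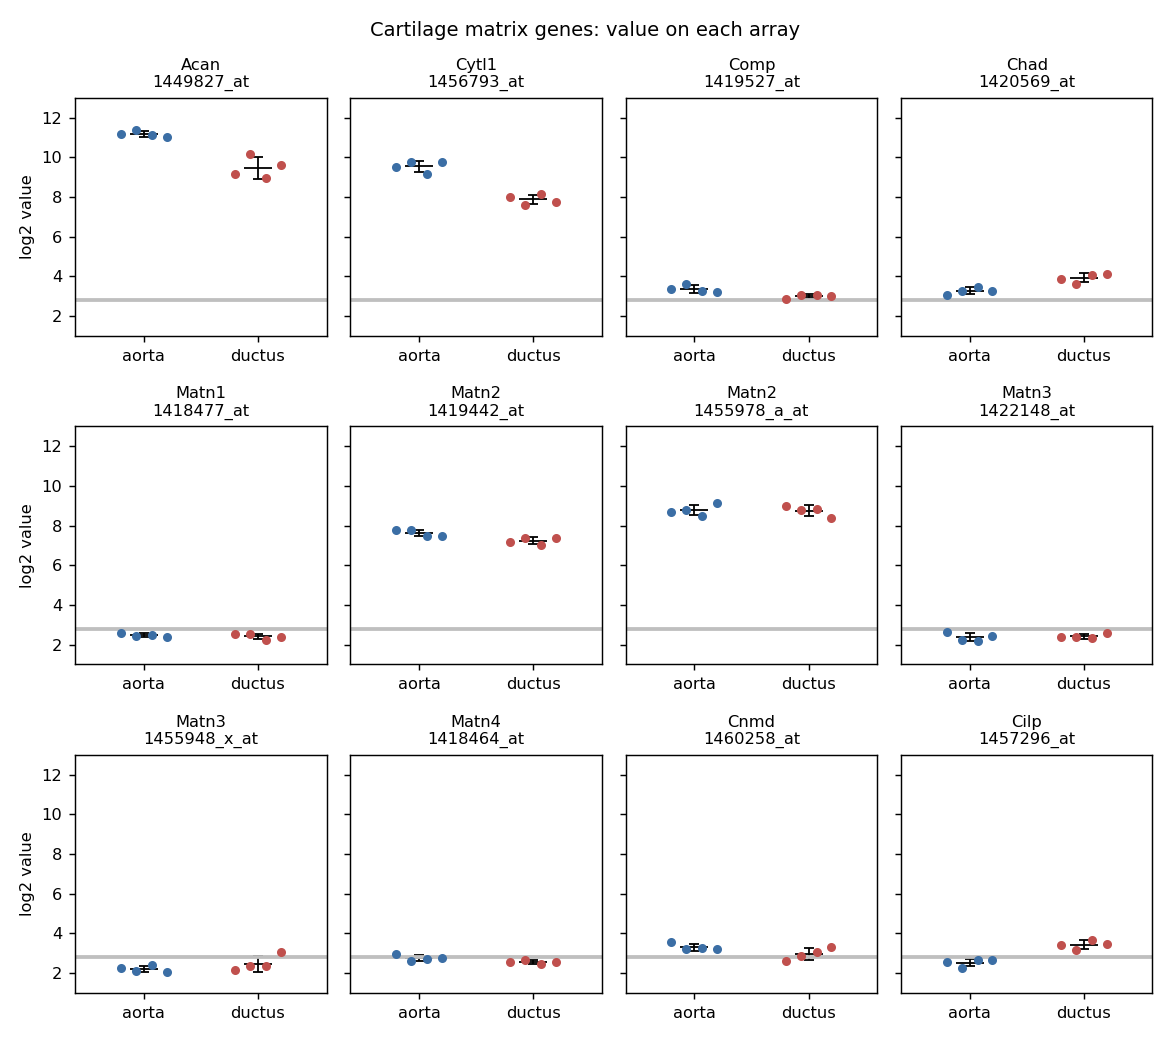
Log2 value of each of the 12 probe sets on each array (points: blue, aorta; red, ductus; replicates 1 to 4 from left to right), with the mean and SD of 4 arrays in black. The grey band is the range of the arrays' first quartiles, 2.74 to 2.86. Acan, Cytl1 and both Matn2 probe sets lie far above the band, and the others lie near or under it.

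Acan and Cytl1 fell together between the vessels but did not follow each other from array to array inside the ductus. There, replicate 2 had the highest and replicate 3 the lowest Acan value, and the reverse held for Cytl1. In the aorta both were highest on replicate 2. With 4 arrays per vessel this only describes these pools. Markers of the cells that line the vessel were higher in the aorta too: of 8 endothelial markers, 3 fell in the ductus (Tek, Cldn5 and Pecam1), and the mean log2 level of the 8 was 8.12 to 8.60 in the aorta and 7.53 to 7.79 in the ductus. Of the called endothelial genes, Pecam1 lost its call on leaving out 4 of the 8 arrays (aorta replicate 2 and ductus replicates 1, 2 and 3; adjusted p up to 0.0735) and Cldn5 without ductus replicate 4 (0.0522). Of 10 mesothelial markers 7 fell, with a mean level of 7.72 to 9.12 in the aorta and 6.48 to 7.10 in the ductus. The part of either cell type in the Acan and Cytl1 differences was not tested.

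By root mean square distance over the 8 arrays, with each gene centred on its own mean, the genes most like Cytl1 were Gkn3 (0.159 log2 units), which encodes a gastrokine, Cdh13 (0.178), which encodes T-cadherin, and Fbln1 (0.185), which encodes the matrix protein fibulin 1. Since the distance covers the difference between the vessels, which was large for Cytl1, genes with a like difference are near to it by construction. Gkn3 read 9.50, 9.58, 8.74 and 9.55 in the aorta and 7.86, 7.54, 8.06 and 7.89 in the ductus. It was lowest on aorta replicate 3 and on ductus replicate 2, as was Cytl1. The endothelial tight junction gene Cldn5, picked after its values were seen, ranked the arrays as Cytl1 did in both vessels, at 7.96, 8.58, 7.59 and 8.28 in the aorta and 6.98, 6.31, 7.15 and 6.73 in the ductus. The same order in both vessels was found in 122 of 18193 genes, or 0.671%. Acan did not have it, and in the ductus its order was the reverse. Other endothelial markers differed from Cldn5: Kdr read 6.31, 6.91, 5.99 and 6.39 in the ductus, in the order of Acan there. Vwf ranked the ductus arrays as Cytl1 did, but not the aorta arrays. Pecam1, Tek and Tie1 were highest on aorta replicate 1, where Cytl1 was highest on replicate 2.

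**Figure D2:**
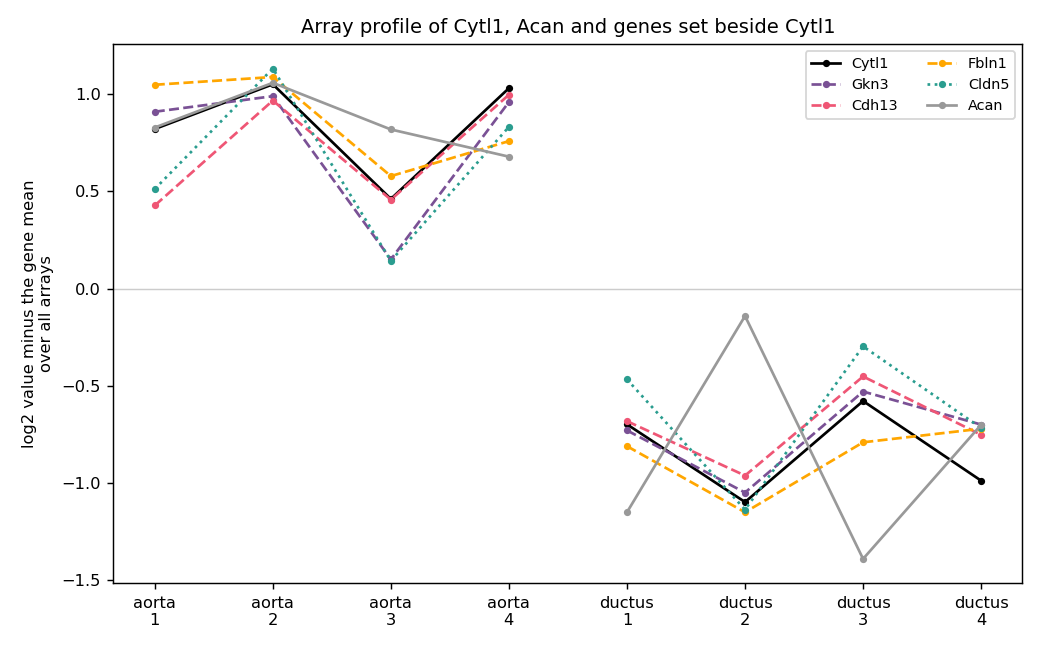
Log2 value minus the gene's mean over all arrays (y axis) on each of the 8 arrays (x axis) for Cytl1, Acan, the 3 genes nearest to Cytl1 and Cldn5. Lines join the values of a gene for reading only. Cytl1 and Cldn5 are lowest in the ductus on replicate 2, where Acan is highest.

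Chad encodes chondroadherin, a leucine-rich protein that binds collagen and integrins on cartilage cells. Its log2 values were low, 3.07, 3.29, 3.49 and 3.26 in the aorta and 3.89, 3.62, 4.09 and 4.13 in the ductus, without overlap. The difference was 0.65 ± 0.143 (SE), or 1.57-fold in favour of the ductus, with an adjusted p of 0.0361 in the gene fit and 0.0505 among all probe sets. Chad kept its call without aorta replicate 3 or ductus replicate 2, and lost it without any other array (adjusted p up to 0.107).

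Cilp encodes cartilage intermediate layer protein, a matrix protein of deeper cartilage that binds TGF-beta. Its log2 values were 2.55, 2.26, 2.67 and 2.65 in the aorta and 3.44, 3.16, 3.68 and 3.48 in the ductus. Each aorta value lay under the first quartile of its own array and each ductus value above it, so Cilp is not shown to be above background in the aorta. The log2 difference was 0.90 ± 0.143 (SE), 1.87-fold in favour of the ductus (adjusted p = 0.00769); the fold is not exact. Cilp stayed called when any 1 array was left out. With the mean of airway epithelium markers in the fit, a choice made after seeing the data, it was not (log2 0.68, adjusted p = 0.0752). These markers had a mean log2 level of 3.38 to 4.34 in the aorta and 3.93 to 5.12 in the ductus, and 1 of 8 was called: the club cell gene Scgb1a1 was at 3.31 ± 0.436 in the aorta and 6.36 ± 0.675 in the ductus (adjusted p = 0.000992). The lung epithelial factor Nkx2-1 was at 2.70 to 3.23 on the 8 arrays. Lung surfactant genes on the same list read higher on some arrays. Sftpc was at 4.13, 4.25, 3.92 and 7.38 in the aorta and 6.93, 4.25, 9.56 and 4.76 in the ductus (limma adjusted p = 0.615). Sftpb was at 3.39 ± 0.458 in the aorta and 4.21 ± 0.725 in the ductus (limma adjusted p = 0.291). The airway markers themselves differed between the vessels, by log2 0.73 on average, so this fit cannot separate such cells from the vessel. What part of the Cilp difference goes with them was not tested.

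**Figure D3:**
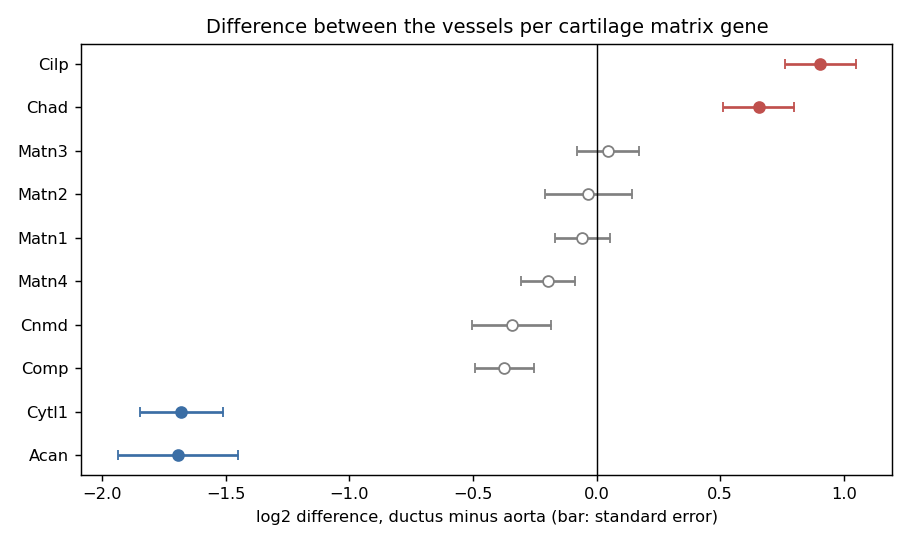
Log2 difference, ductus minus aorta, for each of the 10 genes, with limma's standard error as the bar. Filled points were called (blue, higher in the aorta; red, higher in the ductus) and open points were not; Acan and Cytl1 lie at -1.69 and -1.68, and the other genes between -0.37 and 0.90.

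The matrilins are adaptor proteins built from von Willebrand factor A domains, and none of the 4 was called. Matn2, the member of the family found in many tissues outside the skeleton, was the only one with values well above the quartile band. Its probe set of highest mean read 8.69, 8.78, 8.50 and 9.15 in the aorta and 9.01, 8.78, 8.84 and 8.36 in the ductus, overlapping widely (log2 difference -0.034 ± 0.176 SE, adjusted p = 0.952). The other Matn2 probe set read 7.78, 7.77, 7.49 and 7.50 in the aorta and 7.17, 7.38, 7.04 and 7.35 in the ductus. These values did not overlap, yet the difference did not pass among all probe sets (-0.40 ± 0.128 SE, adjusted p = 0.180). Both probe sets of Matn2 had the lower mean in the ductus, but neither was called, so whether Matn2 differs is left unsettled.

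Matn1 and Matn3, matrilins of cartilage itself, stayed low on every array. Matn1 lay between 2.22 and 2.61 and under the first quartile on all 8 arrays (log2 difference -0.058 ± 0.110 SE, adjusted p = 0.855). Matn3 did the same by its main probe set, at 2.20 to 2.65 (0.047 ± 0.126 SE, adjusted p = 0.902). Its other probe set, of a class that can match related transcripts, was at 2.06 to 2.39 except on ductus replicate 4, at 3.07 (adjusted p = 0.596 among all probe sets). Matn4 was under the first quartile on 7 arrays and read 2.95 on aorta replicate 1 (difference -0.20 ± 0.109 SE, adjusted p = 0.424). For these genes no level above background was shown in either vessel.

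Comp encodes cartilage oligomeric matrix protein, a thrombospondin that joins collagens and matrilins. It was at 3.36, 3.62, 3.29 and 3.21 in the aorta and 2.86, 3.07, 3.06 and 3.00 in the ductus. Although no ductus value reached an aorta value, the difference of -0.37 ± 0.119 (SE) did not pass (adjusted p = 0.140), and the ductus values lay close to the quartile band. Cnmd encodes chondromodulin, an inhibitor of vessel growth made by cartilage. It was at 3.57, 3.19, 3.25 and 3.21 in the aorta and 2.62, 2.87, 3.04 and 3.31 in the ductus, with overlap through ductus replicate 4 (-0.34 ± 0.161 SE, adjusted p = 0.337).

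Other genes of cartilage, and of tendon and ligament, were set beside these 10, from lists counted without a test of the list. Of 84 such genes, each counted once, 10 rose in the ductus and 5 fell. The tendon and ligament list gave 4 of the 10, and without it 6 of 78 rose and 5 fell, where 1.80% and 2.06% of all genes were. The lists too were chosen with earlier results of these data known, so these shares only describe. Cartilage collagens form the fibrils of the tissue, and limma called 0 of 8, with 1 at an unadjusted p under 0.05. Col2a1, the chain that defines cartilage, read 2.52, 2.89, 2.73 and 2.86 in the aorta and 3.05, 3.10, 2.79 and 3.19 in the ductus. These values overlap, and lie below, in or a little above the quartile band (log2 difference 0.28 ± 0.128 SE, adjusted p = 0.316). Of the 8 collagens, 5 stayed under log2 4 on every array, as did 6 of the 10 genes described above.

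Col27a1, a fibrillar collagen of cartilage, read 8.81, 8.92, 9.46 and 8.55 in the aorta and 9.13, 9.52, 8.99 and 9.39 in the ductus, overlapping (adjusted p = 0.493). Col9a1, named after its values were seen, is a collagen on the surface of cartilage fibrils and read 6.79, 7.73, 6.84 and 7.54 in the aorta and 7.28, 6.39, 7.38 and 6.78 in the ductus, overlapping (adjusted p = 0.707). Col11a1, a collagen inside the fibril that other tissues make too, read 5.03, 5.14, 3.60 and 5.11 in the aorta and 5.94, 6.31, 5.65 and 6.24 in the ductus. Its difference of 1.31 ± 0.333 (SE) did not pass (adjusted p = 0.0653), and aorta replicate 3 lay far under the other aorta arrays. Without that array Col11a1 passed (log2 0.94, adjusted p = 0.0203), as it did as the mean of its 2 probe sets (1.67, adjusted p = 0.00147). At its probe set of largest interquartile range Col11a1 passed too (log2 2.03, adjusted p = 3.28e-05). The count of cartilage collagens called therefore holds for the probe sets of highest mean. As genes of the vessel wall, the smooth muscle myosin Myh11 was at 10.02 to 10.61 in the aorta and 11.19 to 11.46 in the ductus, and the actin Acta2 at 11.89 to 12.41 on the 8 arrays.

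Sox9, the factor that starts the cartilage program and drives Acan in cartilage cells, rose in the ductus while Acan fell. Its log2 values were 7.05, 6.41, 6.43 and 6.84 in the aorta and 8.60, 8.54, 8.62 and 8.74 in the ductus, with no overlap. The difference was 1.94 ± 0.156 (SE; 3.84-fold, adjusted p = 0.000160). Of 3 Sox9 probe sets, 2 went this way and both were called, and the mean over all of them differed by log2 0.98 (adjusted p = 0.00287). Its partners in cartilage, Sox5 and Sox6, had log2 differences of -0.69 (adjusted p = 0.0806) and -0.73 (adjusted p = 0.221). Trps1, a GATA-type repressor of the growth plate, rose 2.05-fold in the ductus (9.21 ± 0.183 against 10.25 ± 0.103; adjusted p = 0.00137), by all 4 of its probe sets, and by log2 1.69 at the one of largest interquartile range (adjusted p = 0.00529). Sox9 and Trps1 were the 2 of 11 chondrogenic transcription factors called.

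**Figure D4:**
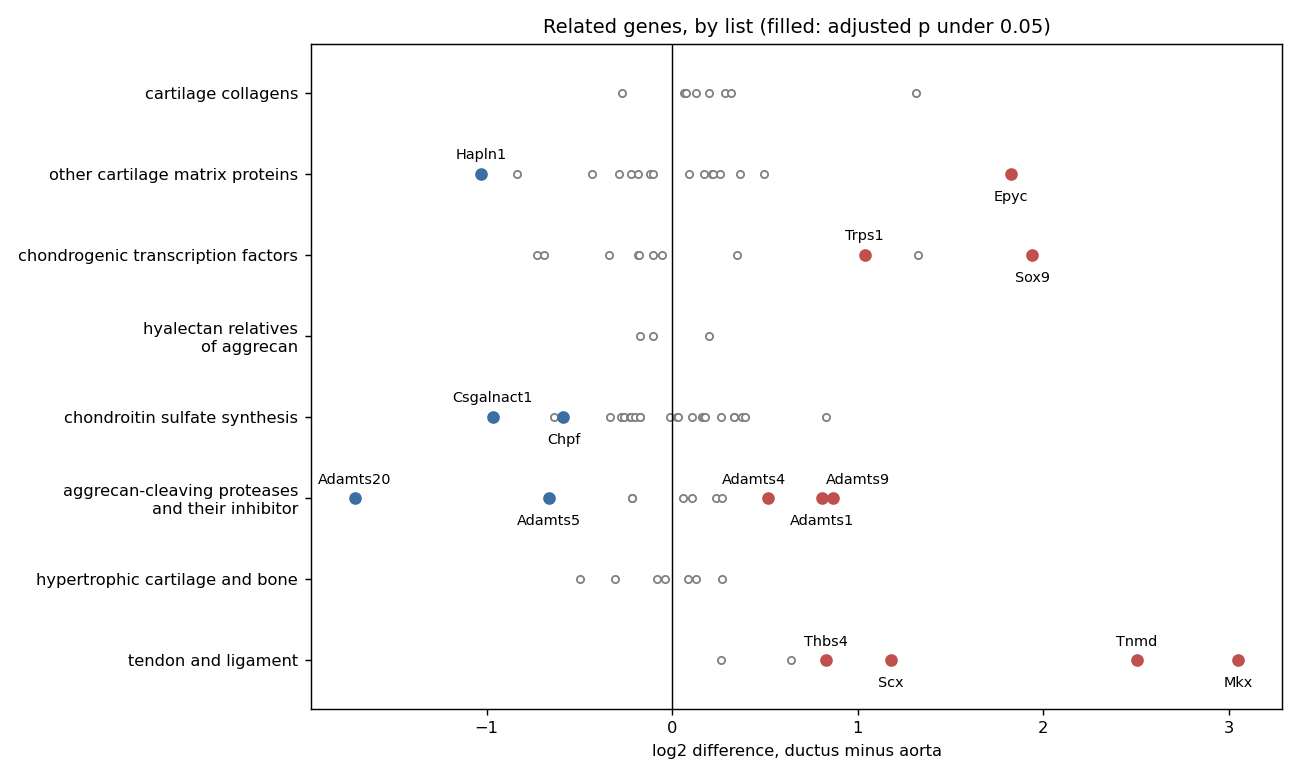
Log2 difference, ductus minus aorta (x axis), of each measured gene in the 8 lists of related genes (y axis). Filled, labelled points were called (blue, higher in the aorta; red, higher in the ductus) and open points were not. Of 6 tendon genes 4 were called higher in the ductus, and of 8 cartilage collagens 0 were called, each gene at its probe set of highest mean.

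Hapln1, the link protein that locks aggrecan on hyaluronan, read 8.72, 8.81, 8.73 and 8.77 in the aorta and 7.84, 7.54, 7.53 and 7.98 in the ductus. The groups were well apart, with a difference of -1.03 ± 0.124 (SE; 2.04-fold lower in the ductus, adjusted p = 0.00167). Of 4 Hapln1 probe sets, 3 went this way and 1 was called, and their mean differed by log2 -0.47 (adjusted p = 0.0400). Csgalnact1, which starts chondroitin sulfate chains, read 8.71, 8.93, 8.95 and 8.65 in the aorta and 7.99, 7.87, 7.58 and 7.93 in the ductus. No values overlapped, both its probe sets were called, and it was 1.96-fold higher in the aorta (-0.97 ± 0.127 SE; adjusted p = 0.00266).

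Chpf, which takes part in lengthening these chains, was at 5.07 ± 0.216 in the aorta and 4.49 ± 0.138 in the ductus, 1.50-fold lower (adjusted p = 0.0426). Chpf kept its call only without aorta replicate 1 or ductus replicate 3 when arrays were left out in turn (adjusted p up to 0.123 otherwise). Its only probe set was not called in the fit of all probe sets. Csgalnact1 and Chpf were the 2 of 24 chondroitin sulfate genes called, and the median difference of that list was 0.0066. Vcan, the versican gene, whose product is the large proteoglycan of vessels and a relative of aggrecan, read 11.45, 11.54, 11.57 and 11.39 in the aorta and 11.68, 11.62, 11.70 and 11.74 in the ductus. All ductus values were higher, by little, and the difference of 0.20 ± 0.0939 (SE) did not pass (adjusted p = 0.347). None of the 3 relatives of aggrecan was called by limma, and 0 had an unadjusted p under 0.05.

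The ADAMTS proteases that cut aggrecan and versican went both ways: of 11 protease and inhibitor genes, 3 rose in the ductus and 2 fell. Adamts9 read 10.50, 10.79, 10.48 and 10.66 in the aorta and 11.52, 11.46, 11.43 and 11.49 in the ductus (1.82-fold, adjusted p = 0.00167) and differed by log2 1.64 at its probe set of largest interquartile range. Adamts1 read 8.34, 8.78, 8.41 and 8.42 in the aorta and 9.12, 9.27, 9.47 and 9.33 in the ductus (1.75-fold, adjusted p = 0.00852). Both were higher on every ductus array than on any aorta array. Adamts4 rose 1.43-fold in the ductus (adjusted p = 0.0223), a call lost on leaving out any array but aorta replicate 4 (adjusted p up to 0.0675).

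Adamts20, known for cutting versican, read 6.48, 7.37, 6.78 and 6.23 in the aorta and 5.20, 4.91, 4.81 and 5.08 in the ductus, without overlap. It was 3.27-fold higher in the aorta (log2 -1.71 ± 0.225 SE, adjusted p = 0.00266). Adamts5, the main aggrecan-cutting enzyme of mouse cartilage, was at 8.92 ± 0.138 in the aorta and 8.26 ± 0.234 in the ductus, 1.58-fold lower (adjusted p = 0.0295), and is named here after its values were seen. When arrays were left out in turn, Adamts5 kept its call only without aorta replicate 3 or ductus replicate 2 (adjusted p up to 0.0890 otherwise). It was not called as the mean over its probe sets (log2 -0.32, adjusted p = 0.233). Timp3, which inhibits these enzymes, differed by log2 -0.22 (adjusted p = 0.450).

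**Figure D5:**
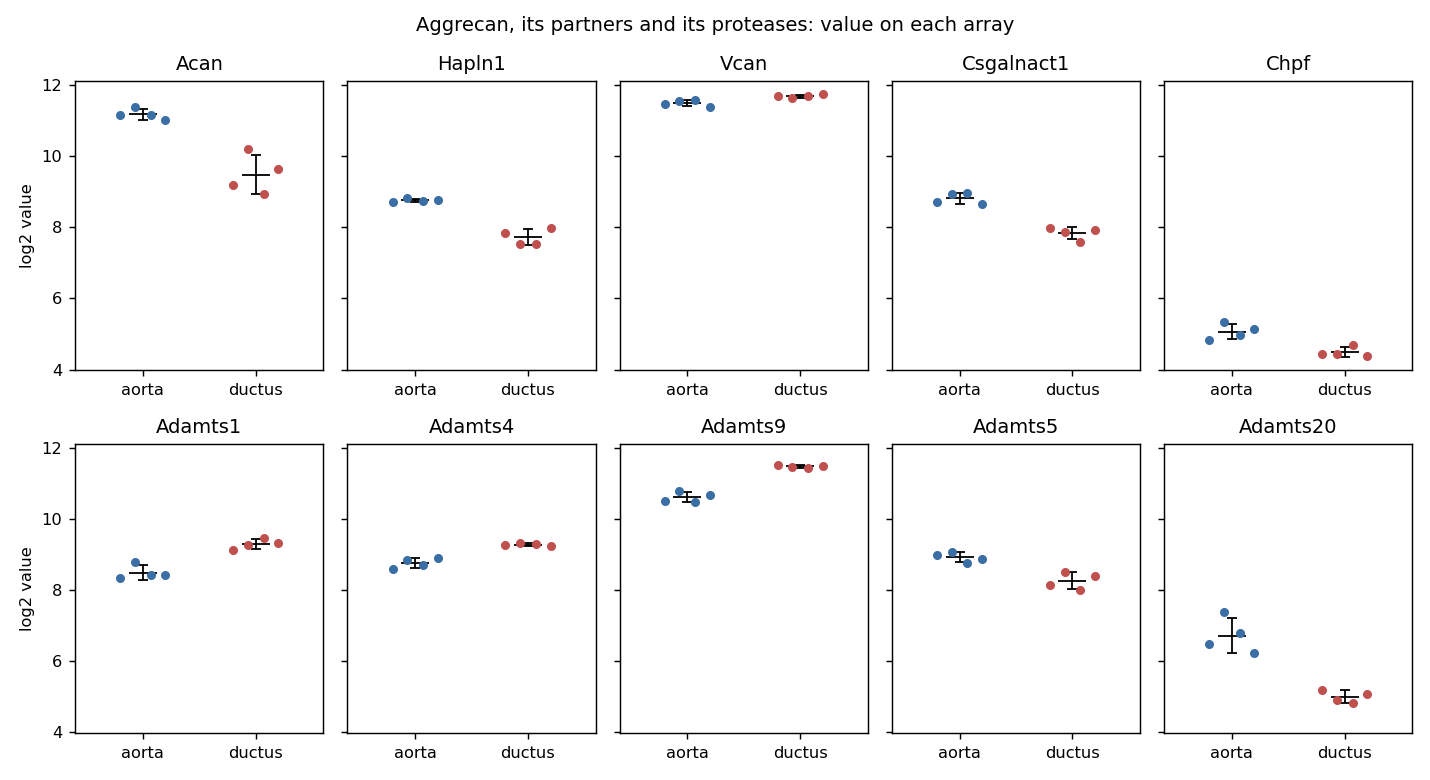
Log2 value on each array (points: blue, aorta; red, ductus; replicates 1 to 4 from left to right) with mean and SD, for Acan, its link protein Hapln1, the relative Vcan, the chain-building Csgalnact1 and Chpf, and 5 ADAMTS proteases. Acan, Hapln1, Csgalnact1, Chpf, Adamts5 and Adamts20 are higher in the aorta, and Adamts1, Adamts4 and Adamts9 in the ductus.

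Epyc encodes epiphycan, a small proteoglycan of growth cartilage. It read 4.02, 5.40, 5.02 and 4.81 in the aorta and 6.68, 6.48, 6.55 and 6.85 in the ductus (3.54-fold, adjusted p = 0.00390). The aorta arrays spread far more than the ductus arrays, and the groups did not overlap. Epyc and Hapln1 were the 2 of 16 other cartilage matrix genes called. Mgp, the inhibitor of calcification made by cartilage and arteries, differed by log2 -0.12 (adjusted p = 0.739).

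Of 6 tendon and ligament genes, 4 rose in the ductus. Mkx, a homeobox factor of tendon, read 5.04, 4.35, 3.89 and 4.18 in the aorta and 7.23, 7.39, 7.38 and 7.68 in the ductus (8.29-fold, adjusted p = 0.000105). Tnmd encodes tenomodulin, the tendon relative of the Cnmd product. It read 3.82, 5.05, 5.66 and 4.82 in the aorta and 7.28, 7.08, 7.36 and 7.64 in the ductus (5.67-fold, adjusted p = 0.00272). For Tnmd the groups were over 1 log2 unit apart, where those of Cnmd overlapped near the quartile band.

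Thbs4, a thrombospondin of the same family as Comp, was at 4.41 ± 0.306 in the aorta and 5.24 ± 0.0952 in the ductus, 1.78-fold higher (adjusted p = 0.0166), while Comp itself had its higher values in the aorta. The Thbs4 call was lost without aorta replicate 2 or ductus replicate 1 or 4 (adjusted p up to 0.0590). Scx, the tendon factor scleraxis, was at 4.01 ± 0.129 in the aorta and 5.19 ± 0.628 in the ductus, 2.26-fold higher (adjusted p = 0.0438), and of the 8 arrays left out in turn only ductus replicates 1 and 3 kept its call (adjusted p up to 0.112 otherwise). Of the 2 Scx probe sets, both higher in the ductus, 0 were called in the fit of all probe sets. Of 7 genes of hypertrophic cartilage and bone, limma called 0, with 2 at an unadjusted p under 0.05.

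Other tissues that a dissected segment could hold were checked by their markers. Skeletal muscle markers had a mean log2 level of 3.74 to 4.38 in the aorta and of 4.43, 4.08, 6.92 and 4.35 on the ductus arrays. The high value was that of ductus replicate 3 alone. Of these 8 markers limma called none, with 1 at an unadjusted p under 0.05. Thymocyte and adipocyte markers varied inside both groups, and limma called 0 of 6 and 0 of 4 (0 of either at an unadjusted p under 0.05). With the skeletal muscle or the airway mean in the fit, both added after seeing the data, Chad was not called (adjusted p = 0.145 and 0.179), while Acan and Cytl1 were. Of 8 smooth muscle markers 2 rose in the ductus (Myh11 and Cnn1), of 7 adventitial fibroblast markers 0 were called and 2 had an unadjusted p under 0.05, and of 3 Schwann cell markers 1 rose (S100b, which cartilage cells also express). Cnn1 lost its call on leaving out 5 arrays (aorta replicates 1 and 4, and each ductus array but replicate 2; adjusted p up to 0.0794), and S100b on leaving out any array but aorta replicate 4 (adjusted p up to 0.103).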

How the data were processed

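RNA of pooled ductus and aorta was hybridised to 8 Affymetrix mouse arrays. The deposited values are log2 values. Per the submitters' processing notes they were made with Partek 6.6 and RMA (background correction, quantile normalization and a summary per probe set); their settings are not given in the sources. Of 45101 probe sets, 34945 carried exactly 1 gene symbol and 932 several; 9160 had no entry in the annotation, and 64 controls were dropped. Each gene took its probe set of highest mean over the 8 arrays, with no low-value filter.

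Ductus minus aorta was fitted with R 4.3.3 and limma 3.58.1 (functions lmFit and eBayes; two-sided, no covariate) over all genes and, separately, all probe sets, with Benjamini-Hochberg adjustment; the scripts were tested on simulated data. Replicates are litter pools, so p-values measure the spread between pools, and precision is limited by how few arrays there are.

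The members and lists were chosen with earlier results of these data known. Named are all members, up to 4 called genes per list by adjusted p (up to 2 by size where none was called), Col2a1, Sox9 and the 3 genes nearest to Cytl1, though not every marker is printed; Mgp, Timp3, Sox5, Sox6, Acta2, Nkx2-1, Col9a1 and Adamts5 were added outside this rule, as genes of known role. Kdr, Vwf, Tie1, Sftpc, Sftpb and Krt18 were also added outside this rule, after their values were seen. Promoter sequences are RefSeq's (GRCm38.p6). Alternatives covered scaling, low-value filters, probe set choice, prior, array weights, a replicate block, thresholds, leaving out each array and, added after seeing the data, 4 marker covariates. Background correction could not be varied, since only normalized values were used here. The labels name Trizol for extraction and the design text a Versagene kit.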

Additional observations from a re-analysis of the deposited data

Results flagged for a closer look

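Single arrays stood far from the other 3 of their group in 8 of 106 groups of 4 checked by Dixon's gap criterion, which chance alone meets in about 1 of 20. Among the cartilage matrix genes this held for Cnmd on aorta replicate 1, at 3.57 where the other aorta arrays were at 3.19 to 3.25. Among related genes, Col11a1 was at 3.60 on aorta replicate 3 (others 5.03 to 5.14) and the brevican gene Bcan at 3.24 on aorta replicate 1 (others 3.75 to 3.78). Among marker genes, Pecam1 was at 8.72 on aorta replicate 1 (others 8.27 to 8.35) and Scgb1a1 at 3.96 on aorta replicate 4 (others 3.05 to 3.13). The skeletal muscle gene Myh3 was at 7.77 on ductus replicate 3 (others 3.00 to 3.67). Another, Tnnt3, was at 5.50 on aorta replicate 4 (others 4.82 to 4.93) and at 7.71 on ductus replicate 3 (others 6.06 to 6.19).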

How the results depend on the processing

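Acan and Cytl1 were called higher in the aorta in each of 23 alternatives, with log2 differences of -1.93 to -1.18 and -1.94 to -1.60. The 4 called genes became 2 without the lowest 40% of genes, with a mean above log2 6, with a 2-fold minimum and with the airway covariate. The 2 higher in the ductus became 0 under those same settings, and 1 with the replicate block, at adjusted p under 0.01 and with the skeletal muscle covariate; leaving out each array gave 1 to 2. In the gene fit the low-value filters removed Chad and Cilp; in the probe set fit Chad stayed without the lowest 40% and was called. The 10 related genes higher in the ductus became 6 with a mean above log2 6, a 2-fold minimum or the airway covariate. The 5 higher in the aorta became 3 with a mean above log2 6, with the replicate block, at adjusted p under 0.01 and with the skeletal muscle, thymocyte or airway covariate, 2 with a 2-fold minimum, and 3 to 5 on leaving out arrays (3 without aorta replicate 2 or 4, or ductus replicate 1 or 4). Filters and thresholds act by their construction; for the other settings the cause was not tested. Deviations of same-numbered arrays were not positively correlated (correlations of -0.068, -0.15, -0.19 and -0.23). Whether equal numbers mark pools of the same litter cannot be decided from this, since every other difference between arrays also enters these correlations. With the replicate block Chad lost its call (adjusted p = 0.0829).

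No reversed value was called: Matn1 was at -0.095 to 0.0069 on leaving out each array (positive without ductus replicate 3), 0.049 with the skeletal muscle and 0.043 with the airway covariate. Matn2 was at 0.0066 after median centring and at -0.13 to 0.096 on leaving out each array (positive without aorta or ductus replicate 4). Matn3 was at -0.012 to 0.14 on leaving out each array (negative without aorta replicate 3 or ductus replicate 4). Of the markers, Cd8a was at -0.028 with the thymocyte and -1.002 with the airway covariate, Rag1 at -0.15 with the airway covariate, and Cidea at -1.01 to 0.49 on leaving out each array (positive without aorta replicate 3). A level near the first quartile is limited by the background of the array, so differences there may be understated.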

Other observations

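Within the ductus, Acan and the smooth muscle calponin gene Cnn1 ranked the 4 arrays in opposite orders, Acan from replicate 2 through 4 and 1 to replicate 3, and Cnn1 from replicate 3 through 1 and 4 to replicate 2. The pair was picked after its values were seen and was not tested. Cytl1, Cldn5, Vwf and Krt18 had the order of Cnn1 in the ductus too, so it was not particular to smooth muscle genes. How many of all genes have it was not counted. In the aorta the orders of Acan and Cnn1 were not opposite, since both genes were highest on replicate 2. The mean log2 level of the airway epithelium markers was 4.68, 3.93, 5.12 and 4.09 on the ductus arrays, in order of replicate. It thus ranked them as Cnn1 did, and was also picked after its values were seen.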
